A study of Danio rerio with 12 samples.

Results

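Head osteoblasts were compared with trunk osteoblasts in 6 of the 12 libraries of an ATAC-seq study of zebrafish larvae, 3 libraries for each group. ATAC-seq marks open chromatin with a transposase that inserts adapters where DNA is accessible, and a summit is the base of highest signal in a called peak. The strongest 20380 summits of each osteoblast library were kept, 20380 being the length of the shortest of the 6 lists, and summits no more than 250 bp apart were merged into 1 region. This gave 36551 regions, and the comparison asked which of them held a summit in each group.

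All fish were labelled WT and carried the transgenes entpd5a:Gal4FF;UAS:GFP;R2col2a1a:mCherry, and all cells were taken at 15 days post fertilisation. Both osteoblast groups were sorted as cells with GFP and without mCherry. Head osteoblasts carry the label classical, and those of the trunk carry the label non-classical. The other 6 libraries, head and trunk chondrocytes sorted for mCherry without GFP, entered only where chondrocytes are named. The sort rests on the reporters alone, and how many fish went into each library is not stated in the labels. The titles call the libraries biological replicates, so the tests measure the spread between these samples.

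Osteoblasts secrete and mineralise bone matrix. In zebrafish, entpd5a encodes an enzyme needed for mineralisation, and a reporter on it marks mineralising cells in both the head skeleton and the vertebral column. Much of the head skeleton descends from cranial neural crest, whereas the bone of the vertebral column descends from mesoderm, and the notochord sheath takes part in its first mineralisation. Open chromatin away from promoters is often more particular to a cell type or body position than open chromatin at promoters.

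The full lists held 28911, 78652 and 60979 summits in head replicates 1, 2 and 3, and 20380, 24798 and 64219 in trunk replicates 1, 2 and 3. Their means were 56181 ± 25215 (SD, n = 3) and 36466 ± 24136 (SD, n = 3), so the lengths overlapped between groups. The score at rank 20380, the peak caller's -log10 significance value, ran from 2.34 in trunk replicate 1 to 39.5 in head replicate 2. Read depth is unknown for these lists, and a region missing from a list is one with no summit among those kept, not one shown to be closed. Replicate 1 of each osteoblast group is labelled as restored from a later step after a loss of files, and the enzyme amount and reaction time were adjusted to each sample's cell number. Genes, promoters and cell type markers at the regions are not analysed here, so the sort was not checked against markers and every region is named by its danRer11 position.

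Regions held by all 6 osteoblast libraries outnumbered those that separated head from trunk. All 6 libraries held 9770 regions, which is 26.7% of the total, while 6975 regions were in a single trunk library and 4111 in a single head library. Another 1097 regions (3.0%) were held by all 3 head libraries and no trunk library, and 1023 (2.8%) by all 3 trunk libraries and no head library. The 2 sets, called head-only and trunk-only regions from here on, made up 5.8% of all regions. They are what the selection returned and carry no test.

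**Figure D1:**
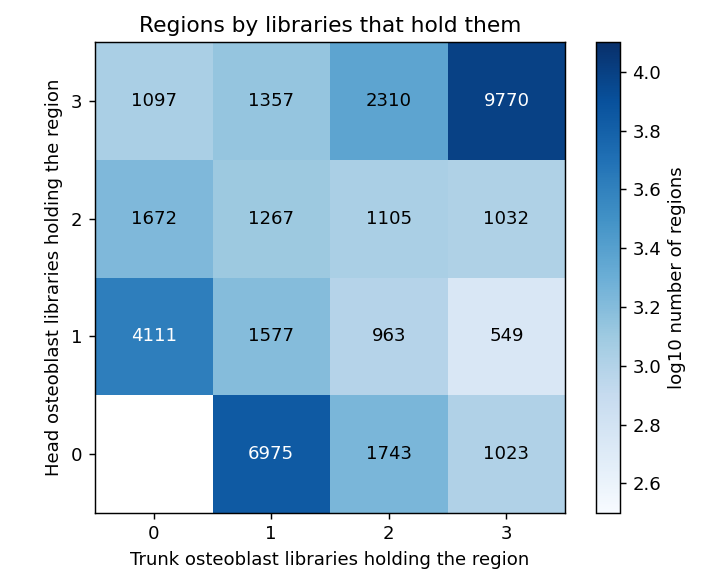
Number of the 36551 regions by how many of the 3 head osteoblast libraries (vertical axis) and how many of the 3 trunk osteoblast libraries (horizontal axis) held them, with colour on a log10 scale. The 9770 regions of all 6 libraries form the largest cell, and the corners of head-only and trunk-only regions hold 1097 and 1023.

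The regions that came close to separating the groups were not spread evenly over the libraries. Of the 1357 regions held by all 3 head libraries and 1 trunk library, that library was trunk replicate 3 for 956 (70.5%), replicate 2 for 230 and replicate 1 for 171. In the opposite direction, the 549 regions of all 3 trunk libraries and 1 head library were held by head replicates 1, 2 and 3 in 172, 195 and 182 cases. Trunk replicate 3 thus shared far more of the head pattern than its partners did, and no head library stood out in the same way. Trunk replicate 1 stood apart on the other side, since it alone lacked 1434 (62.1%) of the 2310 regions held by 5 libraries with 1 trunk library missing. It also alone held 3650 (52.3%) of the 6975 regions found in a single trunk library. Of the 1032 regions held by 5 libraries with 1 head library missing, head replicates 1, 2 and 3 lacked 525 (50.9%), 170 (16.5%) and 337 (32.7%). They held 1715 (41.7%), 855 (20.8%) and 1541 (37.5%) of the 4111 regions found in a single head library. Head replicate 1 thus had the largest share of its group in both counts. Trunk replicate 3 had the longest and trunk replicate 1 the shortest list of their group, and the part of list length in these counts was not tested.

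Leaving out a library relaxes the rule, and the counts then moved by more than 1.5 times for 3 of the 6 libraries. Without head replicate 1 there were 1889 head-only regions, and without trunk replicate 1 there were 1715 trunk-only regions. Without trunk replicate 3 there were 2053 head-only and 1713 trunk-only regions. Replicates 2 and 3 alone, the libraries with no recorded loss of files, gave 2186 and 2003, while the replicates 1 are 1 library a group and give no value of their own.

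Separating regions lay among the weaker summits. Among the 1000 strongest summits of each library, 98.7% to 99.5% of the regions were held by all 6 libraries and 0 were head-only or trunk-only. In the last band, ranks 15001 to 20380, 8.18% to 12.6% were held by all 6. Averaged over the holding group, ranks had a median of 13522 in the head-only set and 11839 in the trunk-only set, where rank 1 is the strongest, against 5302 over all 6 libraries for the shared regions. All 3 libraries placed the region in the stronger 10190 ranks for 89 (8.11%) of the head-only and 147 (14.4%) of the trunk-only regions. Trunk-only regions were therefore somewhat nearer the top of their lists, as a description of these lists.

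**Figure D2:**
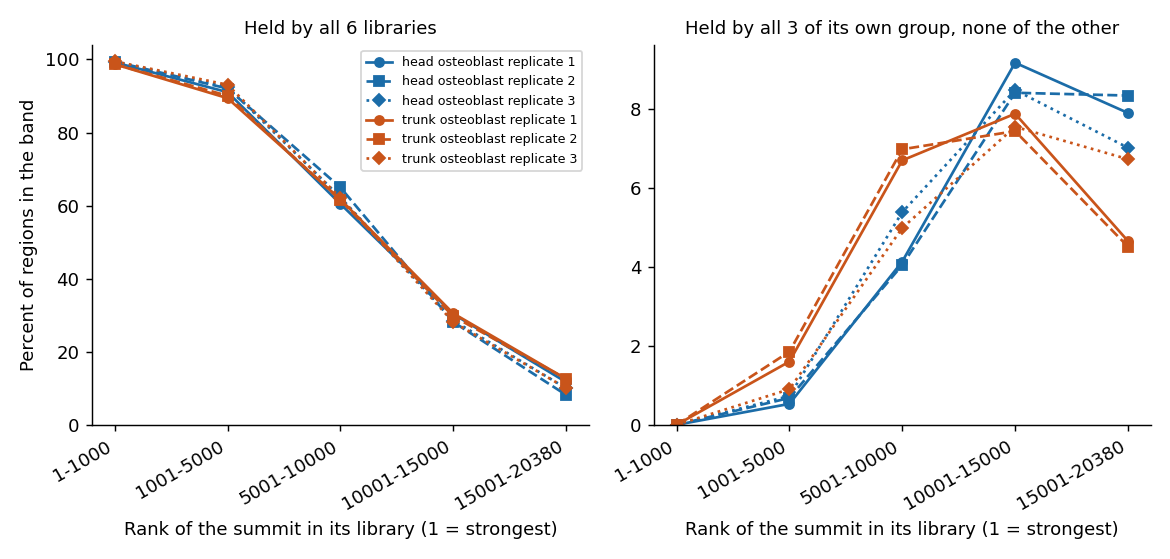
Percent of each library's regions held by all 6 libraries (left) and by all 3 libraries of its own group with none of the other (right), by the rank of the summit in its library. Lines are the 6 libraries; the share held by all 6 falls from at least 98.7% in the first 1000 ranks to at most 12.6% in the last band, and no separating region is found among the first 1000 ranks.

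Most separating regions had a weaker summit of the other group close by once its full lists were read. A full list of the other group held a summit within 250 bp of 944 (86.0%) head-only and 890 (87.0%) trunk-only regions. For head-only regions the full list of trunk replicate 3 supplied 940 of 1097 (85.7%) and that of trunk replicate 2 supplied 107 (9.75%), while trunk replicate 1 has no summits beyond those kept. For trunk-only regions the full lists of head replicates 1, 2 and 3 held 190 (18.6%), 844 (82.5%) and 736 (71.9%) of 1023. With full lists in place of equal ones there were 1161 head-only and 285 trunk-only regions, so the share of head-only regions was 80.3% in place of 51.7%. Full lists of the other group had their nearest summit more than 1000 bp away for 116 (10.6%) head-only and 90 (8.8%) trunk-only regions, of which 112 and 87 lie on the numbered chromosomes.

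The 10 strongest head-only regions of that stricter kind divided by whether chondrocytes held them. The strongest, chr9:30141197-30141287, had ranks 5841, 9223 and 3063 in head replicates 1, 2 and 3 and no summit in any chondrocyte list. The region chr17:49820474-49820528 had ranks 6414, 7121 and 10640, and chr18:9875358-9875379 had ranks 9800, 9958 and 4820. Both were absent from all 6 chondrocyte lists, as was chr5:17674120-17674167 with ranks 13436, 11394 and 7699. These 4 regions were therefore found in head osteoblasts and in no other library of the study. The nearest trunk osteoblast summit lay 36818 bp away from the first and 1343 bp away from the last.

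The other head-only regions were also held by head chondrocytes. At chr9:46689227-46689234, ranks in head osteoblasts were 8634, 11133 and 4306, and the full lists of head chondrocytes placed it at 13381, 10103 and 5512, with 47612 in trunk chondrocyte replicate 2. At chr19:14682693-14682720 the head osteoblast ranks were 5778, 10828 and 8382, and the head chondrocyte ranks were 21598, 16697 and 17706. These were the only regions of the 10 with a trunk chondrocyte summit, each in 1 list. All 3 head chondrocyte lists and no trunk chondrocyte list held chr19:30171258-30171386 (head osteoblast ranks 13142, 5897 and 9732), chr24:1442438-1442449 (8909, 12585 and 7962) and chr10:32391147-32391283 (10496, 10029 and 10950). A single head chondrocyte list held chr20:51631877-51632096, where head osteoblasts had ranks 12810, 8901 and 6558.

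The 10 strongest trunk-only regions had mean ranks from 4813 to 7860, against 6042 to 10843 for the head-only regions above. At chr12:2595818-2595956, trunk replicates 1, 2 and 3 had ranks 5071, 3341 and 6028, and 2 trunk chondrocyte lists held it at 14467 and 25913. The region chr3:8521961-8522050 had ranks 5336, 8108 and 5235 and was likewise held by 2 trunk chondrocyte lists and no head chondrocyte list. The region chr12:34786491-34786570 had trunk osteoblast ranks 7328, 7902 and 6249. Trunk chondrocytes placed it higher still, at 2999 and 3141, and no head chondrocyte list held it. At chr17:30213771-30213805 trunk ranks were 8936, 3819 and 10825, and it was the only region of the 10 absent from every chondrocyte list.

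The remaining 6 trunk-only regions had a summit in at least 1 head chondrocyte list, and for 5 of them the longest was the only head chondrocyte list. They were chr3:26093124-26093160 (trunk ranks 4273, 6889 and 6010), chr20:48628607-48628666 (5049, 4688 and 8417), chr9:21085178-21085189 (3372, 8345 and 8041), chr14:6798191-6798257 (3998, 8589 and 8219) and chr11:28716072-28716140 (5783, 8178 and 8936). In head chondrocyte replicate 1, whose list of 79517 summits is the longest of the study, these sat between ranks 31951 and 74082. Trunk chondrocyte replicate 2 held chr3:26093124-26093160 at 27844, chr9:21085178-21085189 at 22305, chr14:6798191-6798257 at 39815 and chr11:28716072-28716140 at 22806. Trunk chondrocyte replicate 1 held the chr9 region at 22317, and no trunk chondrocyte list held the chr20 region. The other region of the 6, chr1:42971669-42971753, had trunk ranks 4157, 8651 and 10650 and was held by all 3 head chondrocyte lists and 2 trunk chondrocyte lists.

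Chondrocytes were not used to choose the regions, so their lists give a measure outside that choice. Whether osteoblasts and chondrocytes of a body part came from the same fish is not known here. In the full chondrocyte lists, trunk-only regions were held more often than head-only regions by every chondrocyte library, and the gap was wider in trunk chondrocytes. Head chondrocyte replicates 1, 2 and 3 held 70.2%, 53.6% and 52.1% of the head-only regions and 77.6%, 61.3% and 56.6% of the trunk-only regions. Trunk chondrocyte replicates 1, 2 and 3 held 21.0%, 46.8% and 3.92% of the head-only regions and 52.2%, 80.3% and 15.7% of the trunk-only regions. The share of head-only minus that of trunk-only regions was -6.55 ± 1.74 percentage points (SD, n = 3) in head chondrocytes and -25.5 ± 11.9 (SD, n = 3) in trunk chondrocytes. These groups did not overlap. The difference of 18.96 percentage points had p = 0.1 in an exact two-sided permutation test, the smallest p that 3 libraries against 3 allow, so it cannot pass 0.05.

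With each chondrocyte list reduced to its strongest 8407 summits, the length of the shortest list of the study, head-only regions were held by 7.93%, 7.75% and 6.93% in head chondrocytes and by 5.29%, 5.20% and 3.92% in trunk chondrocytes. Trunk-only regions were held by 10.4%, 10.4% and 8.11% in head chondrocytes and by 18.2%, 17.6% and 15.7% in trunk chondrocytes. Each set was thus held more often by chondrocytes of its own body part, with no overlap between the groups in either set. The regions of all 6 osteoblast libraries were held by 50.4% to 58.7%, several times the share of either separating set. The difference of differences was 10.3 percentage points here, again with p = 0.1 by the exact permutation test, the smallest possible. Without head osteoblast replicate 3 in the choice of regions it was 12.9 points on full lists with p = 0.4 by the exact permutation test.

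**Figure D3:**
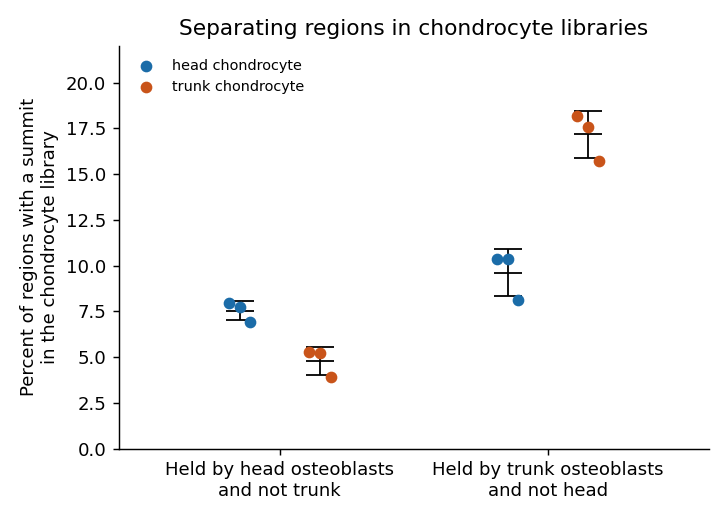
Percent of head-only and trunk-only osteoblast regions with a summit in each of the 3 head and 3 trunk chondrocyte libraries, each reduced to its strongest 8407 summits. Points are libraries and bars are the mean ± SD; head chondrocytes are higher for head-only regions (6.93% to 7.93% against 3.92% to 5.29%) and lower for trunk-only regions (8.11% to 10.4% against 15.7% to 18.2%).

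Among the stricter separating regions on chromosomes, 97 of the 112 head-only regions (86.6%) were in no trunk chondrocyte list and 59 (52.7%) were in no head chondrocyte list. All 3 head chondrocyte lists held 23 of them (20.5%). Of the 87 trunk-only regions, 48 (55.2%) were in no head chondrocyte list and 30 (34.5%) in no trunk chondrocyte list, and 23 (26.4%) were in neither. Full chondrocyte lists differ in length, from 8407 to 79517, and its part in these shares was not tested.

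Shared regions can still differ in strength, and their rank within lists of equal length was tested with limma on the -log2 of the rank over all 9770 regions held by all 6 libraries. The test called 334 regions (3.42%) at a Benjamini-Hochberg adjusted p under 0.05, 113 stronger in head (1.16%) and 221 stronger in trunk (2.26%). The median difference over all tested regions was 0.06 on the log2 rank scale, head minus trunk. The called differences had sizes from 1.07 to 3.87, with medians of 1.55 for regions stronger in head and -1.58 for regions stronger in trunk. Regions stronger in head had median ranks of 2994, 3081 and 2828 in the head libraries and 11075, 10391 and 7387 in the trunk libraries. Regions stronger in trunk had median ranks of 10394, 9301 and 9311 in head and 2858, 2744 and 3139 in trunk. The ranks of the groups did not overlap in 98.2% of the called regions and in 21.6% of all tested regions.

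The count of called regions moved when most single libraries were left out, though it was 317 of 11158 without trunk replicate 1. The count was 90 of 10266, 134 of 9929 and 135 of 10097 without head replicates 1, 2 and 3. It was 175 of 10394 without trunk replicate 2. Without trunk replicate 3 it was 677 of 9982, when 51.8% were stronger in head in place of 33.8%. Replicates 2 and 3 alone gave 7 calls in 11958. These runs also had fewer residual degrees of freedom than the main test. Full lists with rank as a share of list length gave 0 in limma, with 560 of 12060 regions at an unadjusted p under 0.05 and the median of all regions moved to 0.68. On the log2 scale, dividing by list length adds the same value to every region of a library. It therefore shifts the differences of all regions alike and adds the spread of list lengths within groups.

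**Figure D4:**
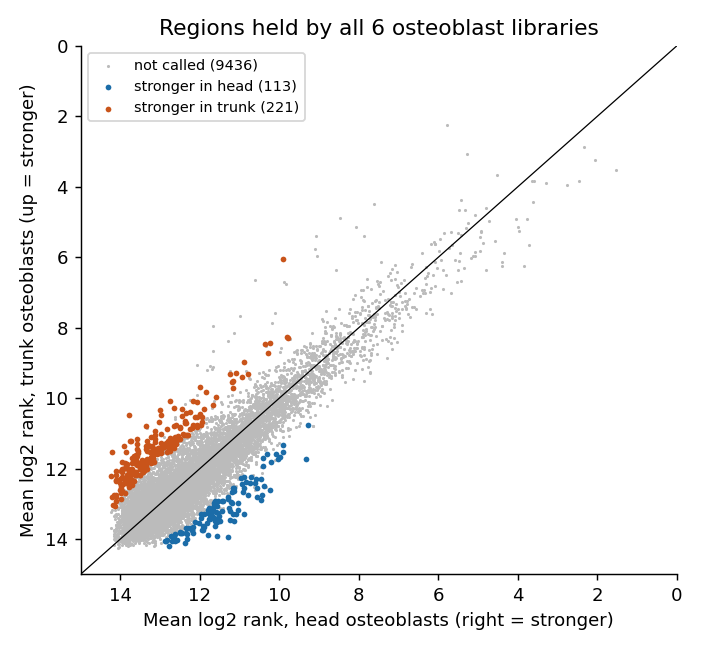
Mean log2 rank of the 9770 shared regions in head osteoblasts (horizontal) and trunk osteoblasts (vertical), with both axes reversed so that stronger regions lie to the right and up; the line marks equal rank. The 113 regions called stronger in head lie below the line and the 221 called stronger in trunk lie above it.

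The region with the largest difference of all called regions was also among the strongest of the trunk lists. At chr15:29242116-29242151 the ranks were 1067, 691 and 1193 in head replicates 1, 2 and 3 and 49, 65 and 89 in trunk replicates 1, 2 and 3. Every trunk library placed it in its top 100 and no head library did, with a difference of -3.87 ± 0.46 (SE) on the log2 rank scale, which is a 14.6-fold difference in rank, and a limma adjusted p of 8.2e-05. In chondrocytes its ranks were 2266 and 2704 in trunk replicates 1 and 2 and 7364 and 13715 in head replicates 1 and 2, while head replicate 3 had no summit there among its strongest 20380. The region was thus nearer the top in trunk than in head for both cell types in these libraries.

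The region chr7:68548619-68548718 had ranks 13248, 14720 and 14387 in head and 1857, 823 and 1951 in trunk, far apart and with no overlap. Its difference was -3.29 ± 0.38 (SE) with a limma adjusted p of 8.2e-05. Both trunk chondrocyte libraries with lists of at least 20380 placed it at 618 and 631, and head chondrocytes at 1239, 2411 and 3539, so head osteoblasts were the group with the weakest rank. At chr12:42973281-42973375 the ranks were 6301, 8551 and 6132 in head and 1089, 999 and 1171 in trunk, a difference of -2.67 ± 0.34 (SE, limma adjusted p = 0.00019). At chr16:19779466-19779618 they were 18122, 20162 and 18165 in head and 2561, 2346 and 4235 in trunk. Head libraries held that region only near the end of their kept lists, and neither of the longer trunk chondrocyte lists held it among its strongest 20380 summits, whereas head chondrocytes did at 16844, 12596 and 15004. In chondrocytes it was thus nearer the top in head, the opposite of osteoblasts. At chr2:55322349-55322396 the ranks were 6774, 10103 and 8190 in head and 1880, 940 and 1243 in trunk. Trunk chondrocytes, at 2046 and 964, were nearer the top there than head chondrocytes, at 3920, 8405 and 10980.

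In the head direction, chr1:58790158-58790242 led with ranks 2314, 3159 and 2161 in head and 17746, 19302 and 11534 in trunk, a difference of 2.66 ± 0.37 (SE, limma adjusted p = 0.000303). At chr1:24076178-24076189 the ranks were 654, 881 and 450 in head and 4329, 2816 and 3307 in trunk, a difference of 2.43 ± 0.36 (SE, limma adjusted p = 0.000862). Head chondrocytes placed that region at 1580, 2244 and 2319 and trunk chondrocytes at 13026 and 8818, so it was nearer the top in the head for both cell types. At chr5:63117130-63117267 the osteoblast ranks were 1912, 2230 and 2424 in head and 8733, 8692 and 13638 in trunk, while the 5 chondrocyte libraries all lay between 1650 and 2583. Trunk osteoblasts were the group that stood apart there. At chr25:6533135-6533243 the ranks were 967, 2031 and 1332 in head and 9341, 7405 and 4630 in trunk, with chondrocytes of both body parts between 6580 and 11715, so that head osteoblasts stood apart. The remaining named region lies on an unplaced scaffold at bases 7785 to 7862, with ranks 2020, 1607 and 2095 in head and 11761, 13691 and 6399 in trunk and no summit in the strongest 20380 of any chondrocyte library.

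The 10 named regions passed the limma threshold without any 1 of the 6 libraries. All 10 lost the call with full lists, where their limma adjusted p lay between 0.644 and 0.759 although their differences kept their sign, at 2.91 to 3.35 in the head direction and -1.97 to -3.17 in the trunk direction. Their ranks were the same in the full lists, and division by list length shifted all 10 differences by the same amount. The full-list run also merged regions anew and tested 12060 in place of 9770. The part of each change in the lost calls was not tested. With replicates 2 and 3 alone, 6 lost the call, with limma adjusted p at 0.0652 to 0.098.

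Over all called regions, the chondrocyte ranks could be read where all 5 chondrocyte libraries with at least 20380 summits held the region. This was so for 49 of the 113 regions stronger in head osteoblasts and 161 of the 221 stronger in trunk osteoblasts. The head minus trunk difference in chondrocytes had a median of 0.52 on the log2 rank scale for the former, with 35 (71.4%) above 0. It had a median of -0.47 for the latter, with 44 (27.3%) above 0. Over the 7239 tested regions that these 5 libraries held, the median was 0.13 and 60.3% were above 0, and the lists are given here with no test.

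Distances between separating regions are given without the share for an equal number of other regions, which was not computed. Another region of the same direction lay within 10 kb of 52 (4.74%) head-only and 74 (7.23%) trunk-only regions, and a region of the opposite direction lay within that distance of 49 in each set. Among 100 kb windows, 813 held 1 head-only region, 98 held 2 and 17 held 3 or more, and 786, 79 and 18 windows held as many trunk-only regions. The fullest window, chr9:3300001-3400000, held 6 head-only regions and 0 trunk-only regions, with 10, 10 and 8 regions in the head libraries and 2, 0 and 2 in the trunk libraries. The windows chr13:31600001-31700000 and chr20:4400001-4500000 held 4 head-only regions each, and 5 windows in all held at least 4. For trunk-only regions, chr9:21000001-21100000 held 5, and chr19:19700001-19800000 and chr23:36000001-36100000 held 4 each, and 4 windows in all held at least 4.

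Whole neighbourhoods were compared by counting regions per 1 Mb window, where limma on log2(regions + 0.5) called 9 of 1282 windows (0.702%), 2 higher in head (0.156%) and 7 higher in trunk (0.546%). This window size is an alternative to the 100 kb windows below. The strongest was chr3:8000001-9000000 with 1, 1 and 1 regions in head and 13, 8 and 8 in trunk, which differ by -2.73 ± 0.30 on the log2 scale (SE, limma adjusted p = 0.000278). The full head lists held 3, 21 and 11 summits there, so the window was not empty in head. At chr9:21000001-22000000 the counts were 2, 3 and 2 in head and 6, 9 and 9 in trunk, and at chr9:31000001-32000000 they were 8, 10 and 7 against 16, 15 and 15. On the same chromosome chr9:3000001-4000000 went the other way, with 21, 22 and 21 regions in head and 15, 13 and 11 in trunk. The other window higher in head was chr15:39000001-40000000, with 26, 24 and 25 against 16, 16 and 18.

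The remaining 4 windows were higher in trunk. The window chr23:36000001-37000000 held 20, 24 and 21 regions in head and 35, 36 and 31 in trunk, which differ by -0.64 ± 0.11 on the log2 scale (SE, limma adjusted p = 0.0150). The window chr18:46000001-47000000 held 12, 12 and 10 in head and 23, 17 and 20 in trunk. The window chr17:30000001-31000000 held 9, 9 and 8 in head and 14, 16 and 15 in trunk, and chr21:28000001-29000000 held 12, 11 and 15 against 23, 23 and 22. In 500 kb windows, also an alternative, limma called 16 of 2299 (0.696%), 5 higher in head (0.217%) and 11 higher in trunk (0.478%). Among the latter, chr7:46000001-46500000 held 0, 0 and 0 regions in head and 5, 4 and 2 in trunk, although the full head lists held 2, 29 and 21 summits there. This window was chosen after its values were seen.

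**Figure D5:**
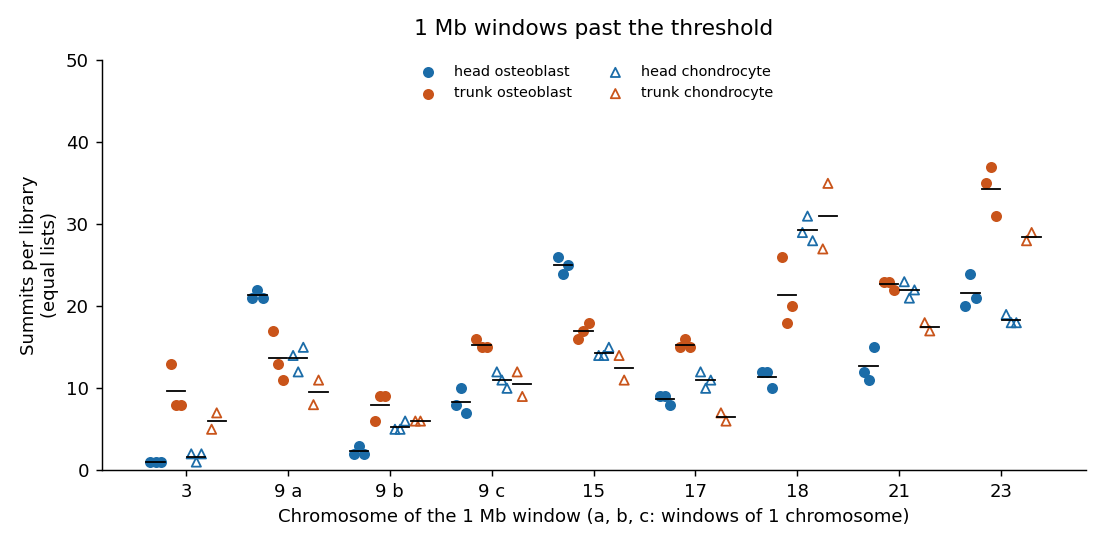
Summits per library among the strongest 20380 in the 9 called 1 Mb windows, for the 3 head and 3 trunk osteoblast libraries (filled circles), the 3 head chondrocyte libraries and the 2 trunk chondrocyte libraries with lists long enough (open triangles). Black lines are group means, and trunk osteoblasts are higher in 7 of the 9 windows. Head and trunk osteoblasts overlap in none of them, but the windows were called on this same difference. The share without overlap among all 1282 tested windows was not computed.

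At 100 kb, limma called 135 of 6299 windows (2.14%), 65 higher in head (1.03%) and 70 higher in trunk (1.11%). However, 100 of the 135 had the same count in every library of each group. Their own spread was 0, so the test rested on a spread that limma borrowed. In the 5 windows of smallest p the SE was only 0.0048 to 0.011 on the log2 scale. It was 0.23 to 0.42 in the varying windows of smallest p in the restricted test. The p-values of unvarying windows thus rest on tied counts, not on a spread measured in those windows. Restricted to windows that vary within a group, an alternative chosen after seeing the data, 115 of 5538 (2.08%) were called, 57 higher in head (1.03%) and 58 higher in trunk (1.05%). Only 35 of the 135 calls vary within a group, so most of the 115 were not called in the first test. The similar shares are thus not the same windows. The 5 windows of smallest p were all of the unvarying kind, led by chr20:4400001-4500000 with 4 regions in each head library and 0 in each trunk library. The full list of trunk replicate 3 held 8 summits in it. The windows chr25:5300001-5400000 and chr4:5000001-5100000 held 2 in each head and 5 in each trunk library, chr23:41400001-41500000 held 3 and 6, and chr11:34100001-34200000 held 1 and 3. The count was 219 of 6370 without head replicate 1. It was 288 of 6351, 240 of 6371 and 308 of 6324 without trunk replicates 1, 2 and 3. With full lists and list length as a covariate, limma called 0 of 9415 windows, with 644 at an unadjusted p under 0.05.

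Summits were spread over the chromosomes almost alike in both groups. Limma on the share of kept summits called 1 of 25 chromosomes (4.0%). Chromosome 18 held 3.13%, 3.03% and 2.97% of the kept summits in head replicates 1, 2 and 3 and 3.29%, 3.25% and 3.2% in the trunk replicates. The groups did not overlap, and the log2 difference was -0.09 ± 0.03 (SE, limma adjusted p = 0.0115). This SE was the same for all 25 chromosomes, so it was pooled over them and is not the spread of chromosome 18 alone. The limma p rests on that pooled spread. The limma adjusted p was 0.212 without head replicate 3, 0.0958 without trunk replicate 1 and 0.708 with full lists. It was 0.00865 and 0.0454 without head replicates 1 and 2, and 0.033 and 0.0225 without trunk replicates 2 and 3.

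The base of highest signal inside shared regions lay close together in head and trunk. Summits more than 250 bp from the next one fell in separate regions, so the merging rule itself limits these distances. In the 9379 shared regions with exactly 1 summit per library, the median difference between the group means was 12 bp, against a median SD within groups of 17.4 bp, and 44.2% of the means lay within 10 bp of each other. Limma called 9 regions (0.096%), 5 with the higher coordinate in head (0.0533%) and 4 with it in trunk (0.0426%), with differences of 76 to 264 bp. At chr11:26666387-26666548 the head summits lay 17, 14 and 0 bp from the start of the region and the trunk summits 150, 161 and 160 bp. At chr23:7623456-7623563 the head summits all lay at 107 bp and the trunk summits at 6, 1 and 0 bp, and at chr20:2725855-2725961 they lay at 106, 96 and 97 bp against 0, 5 and 4 bp. In each the groups were far apart, with limma adjusted p = 0.0193. Without any 1 of the head libraries or without trunk replicate 2 limma called 0 regions, with 374 to 523 at an unadjusted p under 0.05, and without trunk replicate 3 it called 38.

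Over the strongest 20380 summits, the 3 head pairs of libraries were more alike than the 3 trunk pairs. The Jaccard index, the share of regions held by either of 2 libraries that both held, was 0.663, 0.621 and 0.712 between head libraries and 0.532, 0.524 and 0.613 between trunk libraries. Between head and trunk it ran from 0.449 to 0.633, and the highest such pair, head replicate 2 with trunk replicate 3, was above all 3 trunk pairs and 1 head pair. The mean within groups minus the mean between groups was 0.0923, with p = 0.1 in an exact one-sided permutation test over the 10 splits, the smallest p it allows. With full lists it was 0.0299, with p = 0.2 by the same exact permutation test.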

How the data were processed

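Sample titles gave each library's group and replicate number. Per the submitters' processing notes, the reads were processed on danRer11 with MACS2, Bowtie2, fastp, deepTools, SAMtools and bedtools, whose versions and settings are not stated. Per the labels, a read-shifting step was part of the processing. Each deposited file is a per-library list of summits of 1 base with a score, which the authors' peak caller wrote as the −log10 of either a p-value or a q-value. Which one is not stated, and the score served only to rank summits within a list. Positions were counted from 1. 0 columns of per-sample values were left unused.

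Every osteoblast list was reduced to its strongest 20380 summits and chained at 250 bp. limma 3.58.1 in R 4.3.3 was run on -log2 rank, regions per 100 kb window with a mean of at least 1 region, chromosome shares and summit positions. Each test had Benjamini-Hochberg adjustment and 4 residual degrees of freedom. Moderation was trended and robust, except for chromosome shares, where it was plain. The limma tests on rank, 100 kb and 1 Mb windows, chromosome shares and summit positions were also run on simulated data. The permutation tests were not. Simulations with no difference at all covered only rank and windows. The outcomes of the simulations are not given here, so they lend no weight to the calls. Named regions were the 10 separating regions per direction on chromosomes with the lowest mean rank and the other group's nearest summit over 1000 bp away, the 5 of smallest p per direction in the rank test, the 3 windows per direction with the most separating regions (ties taken in the alphabetical order of their positions written as text), the 5 windows and 3 positions of smallest p and every called chromosome. Members, lists and tests were chosen with earlier results of these data known. Alternatives covered list length, chaining distance, filters, window size, scaling, moderation, single libraries and the replicate block. Genes, motifs and markers are not analysed here, since no annotation or sequence of the build was used. Osteoblast lists held 20380 to 78652 summits, and the depth in reads is unknown.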

Additional observations from a re-analysis of the deposited data

Results flagged for a closer look

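Of the 16 called 500 kb windows and 9 called 1 Mb windows, 5 had opposite differences in osteoblasts and chondrocytes with no overlap in either. These were 2 on chromosome 21 and 3 on chromosome 17, nested or adjacent to each other. The share of all windows with this pattern was not computed, and osteoblasts are counted in regions but chondrocytes in summits. All 3 trunk osteoblast libraries were above all 3 head osteoblast libraries, while all 3 head chondrocyte libraries were above both trunk chondrocyte libraries with at least 20380 summits. The difference between the cell types was not tested. Windows with opposite means but overlapping chondrocyte counts are not among the 5. At chr7:46000001-46500000, higher in trunk osteoblasts, head chondrocytes had 3, 4 and 3 summits and trunk chondrocytes 2 and 3. The log2 differences in osteoblasts, head minus trunk, were -0.98 at chr21:28500001-29000000 and -0.83 in the 1 Mb window from 28000001 that contains it. At chr21:28500001-29000000 the osteoblast counts were 9, 10 and 12 regions in head and 21, 21 and 20 in trunk, and the chondrocyte counts were 18, 18 and 19 summits in head and 15 and 14 in trunk. On chromosome 17 the differences were -1.56 in the 500 kb window from 29500001, -2.82 in the one from 30000001 and -0.76 in the 1 Mb window from 30000001, which contains the one before it. At chr17:30000001-30500000 the osteoblast counts were 0, 1 and 1 in head and 8, 8 and 5 in trunk, against 3, 3 and 3 in head chondrocytes and 2 and 2 in trunk chondrocytes. The chondrocyte gap there is 1 summit. At chr17:29500001-30000000 they were 1, 1 and 1 against 5, 4 and 3 in osteoblasts, and 4, 5 and 6 against 2 and 3 in chondrocytes.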

How the results depend on the processing

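Head-only, trunk-only and shared counts moved with list length. They were 463, 488 and 5441 at a list length of 10190 and 366, 388 and 4634 at 8407, trunk-only regions were 285 with full lists, and replicates 2 and 3 alone gave 2186 head-only and 2003 trunk-only regions. Chaining at 100 or 500 bp moved these counts by less than 1.5 times. Leaving out each library gave 1274 to 2053 head-only regions, 1198 to 1715 trunk-only regions, 90 to 677 rank calls, 178 to 308 window calls, 0 to 2 chromosome calls, 0 to 38 position calls, Jaccard differences of 0.0608 to 0.150 and chondrocyte differences of 12.9 to 25.8 points. Rank calls by limma numbered 0 of 12060 with full lists and 111 of 5441 at a list length of 10190. They numbered 164 of 9770 with normal scores and 206 of 9770 with plain moderation. Over regions in at least 3 libraries they numbered 976 of 20473, and with replicates 2 and 3 alone 7 of 11958. Window calls numbered 16 of 2299 at 500 kb, 9 of 1282 at 1 Mb and 0 of 9415 with full lists. They numbered 78 of 3985 with a mean of at least 2 regions and 363 of 9061 with no filter. Replicates 2 and 3 alone gave 527 of 6431. How many of these windows had tied counts within both groups is not given here. Chromosome calls by limma numbered 0 with full lists, with 3 at an unadjusted p under 0.05, and 2 at a list length of 10190. Position calls numbered 3 of 8971 with chaining at 100 bp and 21 of 8415 at 500 bp. The cause of these moves was not tested. The 10 regions named from the rank test, the 5 windows and 3 positions of smallest p and chromosome 18 kept their direction wherever an alternative gave them a value, but lost the call 16, 5, 16 and 4 times. At a list length of 10190 this covers 5 of the 10 rank regions, and with chaining at 100 bp 1 of the 3 positions. The separating regions and the windows with the most of them were not followed one by one. Same-numbered libraries had correlations of deviations of 0.22, -0.19 and -0.08, against -0.264 to 0.405 for differently numbered ones. These values gave no sign of pairing by replicate number, but so few libraries cannot exclude it. With the replicate block there were 205 rank calls, of which 200 are among the 334, 113 window calls, 0 chromosome calls (4 at an unadjusted p under 0.05, chromosome 18 at a limma adjusted p of 0.0535) and 0 position calls (392 likewise). The numbers inside the peak names divide the libraries in the same way as the titles, so no separate block was run. List length limits what the absence of a summit can show.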

Other observations

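The 100 kb windows with the smallest p among those that vary within a group were chosen after their values were seen, and limma adjusted p over these windows is given. At chr9:21000001-21100000 head osteoblasts had 1, 1 and 1 regions and trunk osteoblasts 6, 8 and 8, which differ by -2.37 ± 0.25 on the log2 scale (SE, limma adjusted p = 2.79e-05). Head chondrocytes had 2, 2 and 2 summits there and trunk chondrocyte replicates 1 and 2 had 4 and 4. At chr23:36000001-36100000 the counts were 1, 2 and 1 against 7, 11 and 8 in osteoblasts, and 1, 1 and 1 against 7 and 6 in chondrocytes. At chr3:23600001-23700000 they were 2, 2 and 2 against 7, 12 and 8 in osteoblasts, and 2, 1 and 2 against 8 and 6 in chondrocytes. In these 3 windows all trunk osteoblast libraries were above all head osteoblast libraries, but the windows were picked on this same difference. Trunk chondrocyte replicates 1 and 2 were also above all 3 head chondrocyte libraries. Trunk chondrocyte replicate 3, whose list is shorter than 20380 summits, had 1, 3 and 2 summits in them. It was above the head chondrocytes only at chr23:36000001-36100000. The share without overlap among the 5538 tested windows is not given here.

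At chr24:4800001-4900000 head osteoblasts had 1, 0 and 0 regions and trunk osteoblasts 7, 5 and 5, and chr23:6400001-6500000 had 2, 2 and 1 against 8, 5 and 6. The window chr15:33100001-33200000 was higher in head, with 5, 5 and 7 regions against 1, 2 and 1, which differ by 1.78 ± 0.28 on the log2 scale (SE, limma adjusted p = 0.00286). Head chondrocytes had 2, 4 and 3 summits in it and both trunk chondrocyte libraries 0.

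Head-only regions made up 4.34% of the regions of chromosome 9 and 4.25% of those of chromosome 24, the highest shares of the 25 chromosomes, and 2.11% of those of chromosome 8, the lowest. Trunk-only regions made up 3.84% of the regions of chromosome 17, their highest share, and 2.15% of those of chromosome 25, their lowest. These shares were not tested.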
